A study of Mus musculus with 6 samples.

Results

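A set of 10 genes that Wnt signalling is known to switch on, or that feed back on it, were followed in mouse embryonic stem cells with and without E-cadherin: Axin2, Nkd1, Notum, Rnf43, Znrf3, Lgr5, Dkk1, Sp5, Sp8 and Apcdd1. They were found in the table of gene counts by Ensembl identifier, with the version number dropped, and all 10 were among its 55401 genes. The cells were V6.5, an embryonic stem cell line from hybrid mouse embryos. In 3 libraries the genotype was wild type (WT), and in the other 3 it was Cdh1-/-, called Cdh1 KO here, in which both copies of the E-cadherin gene are disrupted. The libraries of each genotype are named A, B and C. The method that made the knockout, the number of clones, the culture medium and any Wnt treatment are not given in the sources used here. No label says that the libraries came from separate cultures, so p-values measure the spread between these libraries, which may be technical.

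In canonical Wnt signalling, a Wnt ligand binds a Frizzled receptor and an Lrp co-receptor, which stops a destruction complex from degrading beta-catenin. Beta-catenin then enters the nucleus and activates genes together with TCF and LEF factors, and it also binds the cytoplasmic tail of E-cadherin at cell junctions. Many of the activated genes encode inhibitors of the pathway, which is why their RNA is often used as a readout of beta-catenin activity. Embryonic stem cells respond to Wnt signals, and stabilised beta-catenin is known to favour their self-renewal.

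TCF and LEF factors recognise short sequences with the core CTTTG, and the promoters were searched for 4 extended versions of it on both strands. RefSeq promoter sequences on GRCm38.p6 matched 6 of the 10 genes by symbol, with 9 start sites in all. Notum, Znrf3, Lgr5 and Apcdd1 were not matched. In the 250 bases before each start site, a match was present in 3 of the 9 windows, 1 each of Sp5, Dkk1 and Sp8, beside 14.8% of 32851 promoter windows of the same length over all genes. Over all windows, CTTTGAA was present in 4.46%, CTTTGTT in 5.03%, CTTTGAT in 3.21% and CTTTGTA in 3.2%. The stretches with a match follow, with that of Axin2, the most used reporter of the pathway, where none of the 4 versions was found. Capitals mark a match to a motif or to its reverse complement. The Sp5 window (chr2:70474673-70474922, plus strand) ends at the base before the start site and has matches from base -222 to -216 and from base -104 to -98. The Axin2 window (chr11:108920099-108920348, plus strand) also ends at the base before the start site. The Dkk1 site (chr19:30549586-30549615, minus strand) lies in an exon of the gene as the count table draws it, with matches from base -117 to -111 and from base -98 to -92. The Sp8 site (chr12:118847170-118847199, plus strand) lies before the second of 3 start sites, outside exons, with a match from base -51 to -45. A match is a description of letters and does not show that a factor binds there.
Sp5 upstream window: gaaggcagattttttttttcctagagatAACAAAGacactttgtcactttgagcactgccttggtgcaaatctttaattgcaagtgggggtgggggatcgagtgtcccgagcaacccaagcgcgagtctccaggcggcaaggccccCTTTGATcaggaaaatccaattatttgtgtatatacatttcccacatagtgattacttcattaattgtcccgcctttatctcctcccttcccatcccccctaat
Axin2 upstream window: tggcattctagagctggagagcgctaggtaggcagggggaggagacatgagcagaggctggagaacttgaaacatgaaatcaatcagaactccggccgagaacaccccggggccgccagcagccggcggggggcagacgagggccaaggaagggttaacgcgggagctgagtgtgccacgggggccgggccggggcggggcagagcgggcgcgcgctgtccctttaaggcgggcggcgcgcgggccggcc
Dkk1 site: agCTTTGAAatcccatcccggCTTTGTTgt
Sp8 site: cctccgcggcacTTCAAAGccggagaggga

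The libraries held between 18020719 and 23381942 counts. Levels are CPM, the count of a gene relative to the size of its library, after TMM scaling, a correction for library composition. A floor of 6 counts per library was set, under which a level is not told apart from 0, and it lay between 0.262 CPM and 0.332 CPM. Cdh1 itself was at 537 CPM to 571 CPM in WT and at 166 CPM to 183 CPM in Cdh1 KO. The direction is that of the labels, and its counts are summed over all exons. Knockout replicate A stood apart on the second principal component, at 43.5 against -11.7 for B and -25.8 for C, and so did WT replicate C, at -23.8 against 8.86 for A and 8.99 for B. All 6 embryonic stem cell markers (Pou5f1, Sox2, Nanog, Zfp42, Esrrb and Utf1) were over the floor, with a summed level of 2399 CPM to 2724 CPM in WT and 2369 CPM to 3097 CPM in Cdh1 KO. Some markers of other cell types differed between the genotypes. The 6 extraembryonic endoderm markers summed to 27.9 CPM to 45.8 CPM in WT and 74.2 CPM to 145 CPM in Cdh1 KO. All 6 were called higher, beside 7.6% of all tested genes. Of them Foxa2, with 6, 6 and 4 counts in WT, passed the filter on low counts through its knockout libraries only. Gata4 and Sox7 lie on chromosome 14, whose median log2 fold change was 0.53, and Sox17 on chromosome 1, with -0.33. The 5 neuroectoderm markers summed to 82.7 CPM to 104 CPM in WT and 56.2 CPM to 69.9 CPM in Cdh1 KO. Of these, 2 were called lower, beside 5.71% of all tested genes. The 8 fibroblast markers, 7 of them over the floor in any library, summed to 22.7 CPM to 43.6 CPM in WT and 10.6 CPM to 22.8 CPM in Cdh1 KO. Only 5 of the 8 were tested, and 2 were called lower, beside the same 5.71% of all tested genes. The 5 primitive streak and mesoderm markers, of which T and Mixl1 also stand in a list of described targets, summed to 10.9 CPM to 15.8 CPM in WT and 14.4 CPM to 15.9 CPM in Cdh1 KO. Of the 4 tested, 0 were called by edgeR, beside 13.3% of all tested genes. An unadjusted p under 0.05 was seen for 0 of them, beside 26.7% of all tested genes. No marker of these lists was at 0 in all libraries. The part of other cells in these results was not tested, and in bulk RNA fewer cells of a type cannot be told apart from less RNA per cell.

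The series title concerns beta-catenin activity, and these genes were compared between the genotypes as its readouts. It found a fall of Sp8 and a rise of Notum, while Axin2, Nkd1, Znrf3, Rnf43, Apcdd1 and Sp5 did not pass the test. The filter on low counts kept 8 of the 10 genes for the test, and each of these passed the filter with libraries of both genotypes. Among the 8, 1 was called lower and 1 higher at an adjusted p under 0.05 in edgeR's quasi-likelihood test, beside 13.3% of all 17325 tested genes (5.71% lower and 7.6% higher). At an unadjusted p under 0.05 there were 3, Apcdd1 being the third, beside 26.7% of all tested genes. The log2 fold change was below 0 for 6 of the 8 and above 0 for 2, with a median of -0.33, beside a median of -0.01 over all tested genes. Knockout and WT libraries did not overlap for 4 of the 8, Sp8, Nkd1, Notum and Apcdd1, beside 30.7% of all tested genes. Among the 8 tested genes, the 2 called ones were those whose means differed by more than 2-fold, in opposite directions. None of the 10 genes lies on chromosome 1 or 14, whose tested genes had medians of -0.33 and 0.53.

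**Figure D1:**
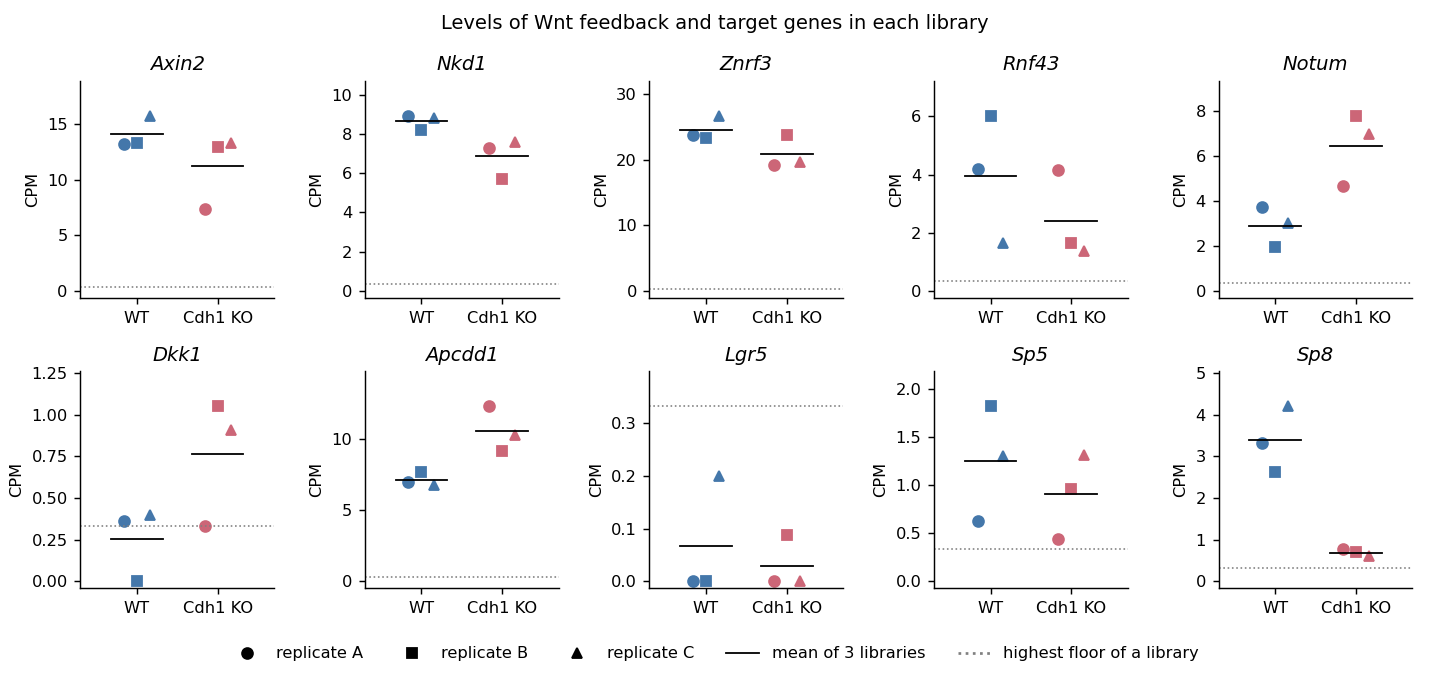
Level of each gene in CPM (linear axes from 0) in the 3 WT and 3 Cdh1 KO libraries, with the symbol giving the replicate letter, the bar the mean and the dotted line the highest floor of a library, 0.332 CPM. Sp8 is lower and Notum higher in every Cdh1 KO library than in any WT library, and all libraries of Lgr5 lie under the floor.

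Axin2 encodes a scaffold of the destruction complex and is induced by Wnt signals in most tissues (ENSMUSG00000000142.15, chromosome 11, 108920349 to 108950783, plus strand). In the order A, B, C, here and for the genes that follow, Axin2 stood at 13.3 CPM, 13.3 CPM and 15.8 CPM in WT, and 7.41 CPM, 12.9 CPM and 13.3 CPM in Cdh1 KO. Knockout replicate A alone was far below WT, at 52.5% of the WT mean, while B was at 91.7% and C at 94.4%. The mean was 14.1 ± 1.43 CPM in WT and 11.2 ± 3.31 CPM in Cdh1 KO (SD, n = 3 each), and the genotypes overlapped. The log2 fold change of -0.33 had a 95% interval from -0.76 to 0.11 and was not called (edgeR adjusted p 0.336). Without knockout replicate A it was -0.10, with an interval from -0.44 to 0.23. A short antisense gene, Gm11670, covers 4.86% of the exon bases of Axin2 and had at most 2 counts in any library.

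Nkd1 encodes Naked cuticle 1, which binds Dishevelled and dampens the signal (ENSMUSG00000031661.12, chromosome 8, 88521354 to 88594884, plus strand). It was at 8.91 CPM, 8.18 CPM and 8.80 CPM in WT and at 7.30 CPM, 5.72 CPM and 7.57 CPM in Cdh1 KO. Every knockout library was lower than every WT library, by a small margin between WT replicate B and knockout replicate C. The log2 fold change was -0.33 (95% interval -0.73 to 0.07, edgeR adjusted p 0.279), so a separation of the libraries was seen without a call.

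Znrf3 and Rnf43 encode related membrane ubiquitin ligases that remove Frizzled receptors from the cell surface. Znrf3 (ENSMUSG00000041961.14, chromosome 11, 5276324 to 5444847, minus strand) had the highest CPM of the 10 genes, at 23.8 CPM, 23.4 CPM and 26.7 CPM in WT and 19.2 CPM, 23.8 CPM and 19.6 CPM in Cdh1 KO. Knockout replicate B lay within the WT range, and A and C lay below it. Its log2 fold change of -0.24 (95% interval -0.51 to 0.04, edgeR adjusted p 0.264) had the smallest standard error of the tested members, 0.13. Rnf43 (ENSMUSG00000034177.15, chromosome 11, 87663087 to 87735539, plus strand) behaved less evenly. It was at 4.19 CPM, 6.01 CPM and 1.65 CPM in WT and at 4.15 CPM, 1.66 CPM and 1.36 CPM in Cdh1 KO. WT replicate C stood with knockout replicates B and C, and knockout replicate A stood with WT replicate A. The standard deviation was 55.5% of the mean in WT and 64.0% in Cdh1 KO, against 7.38% and 12.1% for Znrf3. The log2 fold change of Rnf43 was -0.74 (95% interval -1.73 to 0.25, edgeR adjusted p 0.341), and without knockout replicate A it was -1.38 and passed the threshold (adjusted p 0.0341). Leaving out single libraries gave values from -1.38 to -0.30, with the value nearest 0 found without WT replicate B.

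Notum encodes a secreted enzyme that removes the lipid from Wnt ligands and so inactivates them (ENSMUSG00000042988.10, chromosome 11, 120653788 to 120660829, minus strand). Notum stood at 3.74 CPM, 1.97 CPM and 3.00 CPM in WT and 4.64 CPM, 7.78 CPM and 6.96 CPM in Cdh1 KO. All knockout libraries were higher, and replicate A was the lowest of them. Notum rose from 2.90 ± 0.887 CPM to 6.46 ± 1.63 CPM (SD, n = 3 each), with a log2 fold change of 1.15, a standard error of 0.29, a 95% interval from 0.54 to 1.76 and an edgeR adjusted p of 0.0143. Its call did not hold without WT replicate B (adjusted p 0.0765), without knockout replicate B (0.0802) and without knockout replicate C (0.0550). Genes on the opposite strand cover 38.3% of its exon bases. These are Notumos, with 13, 6 and 2 counts in WT and 14, 31 and 18 in Cdh1 KO, and Myadml2os, with at most 6 counts in any library. Notum itself had 83, 39 and 60 counts in WT and 84, 178 and 138 in Cdh1 KO. The libraries were made with a directional kit, but whether counting used the strand is not given in the sources used here. How reads over the shared bases were assigned between Notum and its antisense partners is therefore not known.

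Dkk1, a secreted antagonist of the Lrp co-receptors (ENSMUSG00000024868.8, chromosome 19, 30545863 to 30549665, minus strand), was close to the floor. It had 8, 0 and 8 counts in the WT replicates and 6, 24 and 18 counts in the Cdh1 KO replicates. Knockout replicate A lay with the WT libraries, and B and C lay above them. The gene did not reach 0.495 CPM in 3 libraries, as the filter asks, and was not tested with the others. In a fit of all genes with at least 1 count, its log2 fold change was 1.59 with a 95% interval from 0.23 to 2.96 (unadjusted p 0.0223, edgeR adjusted p 0.172).

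Apcdd1 encodes a membrane glycoprotein that binds Wnt and Lrp proteins and inhibits the signal (ENSMUSG00000071847.13, chromosome 18, 62922231 to 62961179, plus strand). It was at 7.02 CPM, 7.68 CPM and 6.80 CPM in WT and at 12.3 CPM, 9.17 CPM and 10.3 CPM in Cdh1 KO, so that all knockout libraries lay above WT. The mean was 7.17 ± 0.456 CPM in WT and 10.6 ± 1.60 CPM in Cdh1 KO (SD, n = 3 each). On the log2 scale the difference of 0.56 (95% interval 0.18 to 0.95) missed the threshold, with an edgeR adjusted p of 0.0533. It passed with DESeq2 (adjusted p 0.0367), without the filter on low counts (0.0418) and without knockout replicate B (0.0485), and leaving out WT replicate A gave the highest adjusted p, 0.154.

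Lgr5 encodes the receptor for R-spondins that marks stem cells in the intestine (ENSMUSG00000020140.15, chromosome 10, 115450311 to 115587780, minus strand). It was not detectable at this depth in either genotype, with 0, 0 and 4 counts in WT and 0, 2 and 0 in Cdh1 KO. All of these lie under the floor of 6 counts, and no fold is given.

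Sp5 and Sp8 encode zinc finger transcription factors of the Sp family, and both are described as direct targets of beta-catenin. Sp5 (ENSMUSG00000075304.2, chromosome 2, 70474923 to 70477729, plus strand) has matches in the stretch before its start site shown above. It was at 0.630 CPM, 1.82 CPM and 1.30 CPM in WT and at 0.442 CPM, 0.961 CPM and 1.31 CPM in Cdh1 KO. The genotypes overlapped, and replicate A was the lowest library in both. Its log2 fold change was -0.45 with a 95% interval from -1.53 to 0.64 (edgeR adjusted p 0.636), and single libraries left out moved it to between -0.79 and -0.08.

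Sp8 (ENSMUSG00000048562.7, chromosome 12, 118846329 to 118852576, plus strand), which is known for roles in limb outgrowth and the patterning of the forebrain, had the largest fold change among the 8 tested genes. It was at 3.33 CPM, 2.63 CPM and 4.20 CPM in WT and at 0.774 CPM, 0.699 CPM and 0.605 CPM in Cdh1 KO. The knockout libraries were close to each other and all far below WT. Sp8 fell from 3.39 ± 0.789 CPM to 0.693 ± 0.0843 CPM (SD, n = 3 each), so that 20.5% of the WT mean remained. On the log2 scale this was a change of -2.28 (standard error 0.36), a 95% interval from -3.05 to -1.52 and an edgeR adjusted p of 0.000599. The counts behind it were 52 to 84 in WT and 12 to 16 in Cdh1 KO, all above the floor. Over all 15 alternative settings it lay between -2.43 and -2.09, and the call held in each. The summed neuroectoderm markers, all 5 over the floor and none at 0, were also lower in Cdh1 KO (56.2 CPM to 69.9 CPM against 82.7 CPM to 104 CPM), and their part in the fall of Sp8 was not tested. Of these markers Pax6 and Nes were called lower, with log2 fold changes of -3.14 and -0.88. Sox1, Zic1 and Neurod1 were not called and had values of 0.42, 0.48 and 0.23, so that the median of the list was 0.23.

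**Figure D2:**
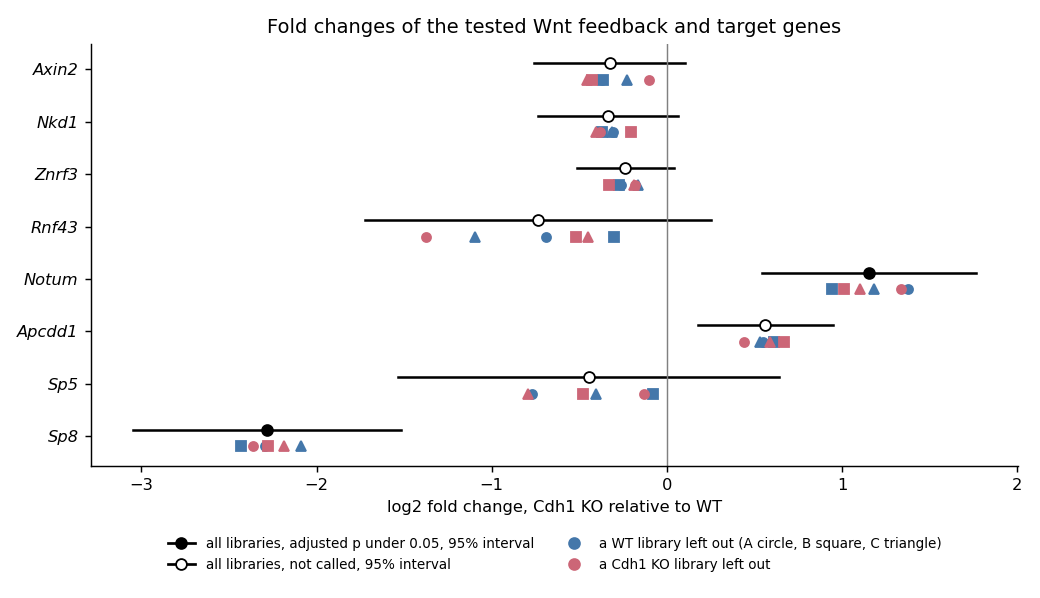
Log2 fold change of Cdh1 KO relative to WT for the 8 tested genes, with 95% intervals from all 6 libraries in black, filled where the adjusted p was under 0.05, and the value after leaving out each library in colour. The intervals of Sp8 and Notum lie away from 0 and are called, that of Apcdd1 lies away from 0 without a call, and the interval of Rnf43 is wide, with its lowest value found when knockout replicate A is left out.

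The depth and the spread between libraries set what could be called. At the standard error of each gene, the smallest change that would have passed the threshold (an unadjusted p of at most 0.00666) was 1.33-fold for Znrf3, 1.48-fold for Apcdd1, 1.51-fold for Nkd1 and 1.56-fold for Axin2. It was 1.87-fold for Notum and 2.19-fold for Sp8. For Rnf43 it was 2.76-fold and for Sp5 3.05-fold. The 95% intervals of Axin2, Nkd1 and Znrf3 reached down to -0.76, -0.73 and -0.51 and up to 0.11, 0.07 and 0.04 on the log2 scale. The libraries did not rank the same way for all genes. Knockout replicate A was the lowest knockout library for 4 of the 8 tested genes (Axin2, Notum, Znrf3 and Sp5) and the highest for 3 (Rnf43, Sp8 and Apcdd1).

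Levels of different genes were compared per exon length, in CPM per kilobase. In WT, Axin2 stood first with 3.31 ± 0.335 and Znrf3 second with 3.12 ± 0.230 (SD, n = 3), and their libraries overlapped. Nkd1 followed at 1.89 ± 0.0862, apart from its neighbours on both sides. Notum (1.29 ± 0.394), Rnf43 (0.870 ± 0.483), Sp8 (0.756 ± 0.176), Apcdd1 (0.659 ± 0.0419) and Sp5 (0.595 ± 0.284) came next, and each overlapped the gene after it in this order up to Sp5. Dkk1 (0.104) and Lgr5 (0.0141) came last. All 10 lay below 5.17 CPM per kilobase, the median of the tested genes in WT.

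In Cdh1 KO, Notum had the highest mean with 2.87 ± 0.721 CPM per kilobase, but its libraries overlapped those of Znrf3 (2.64 ± 0.320), which overlapped those of Axin2 (2.63 ± 0.776). Nkd1 (1.51 ± 0.219) was apart from Axin2 above it and Apcdd1 (0.974 ± 0.147) below it. Apcdd1 overlapped Rnf43 (0.526 ± 0.337), as did Rnf43 with Sp5 (0.431 ± 0.208) and Sp5 with Dkk1 (0.314 ± 0.157). Sp8, at 0.155 ± 0.0188, had moved from the sixth place to the ninth, overlapping Dkk1 above it and apart from Lgr5.

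**Figure D3:**
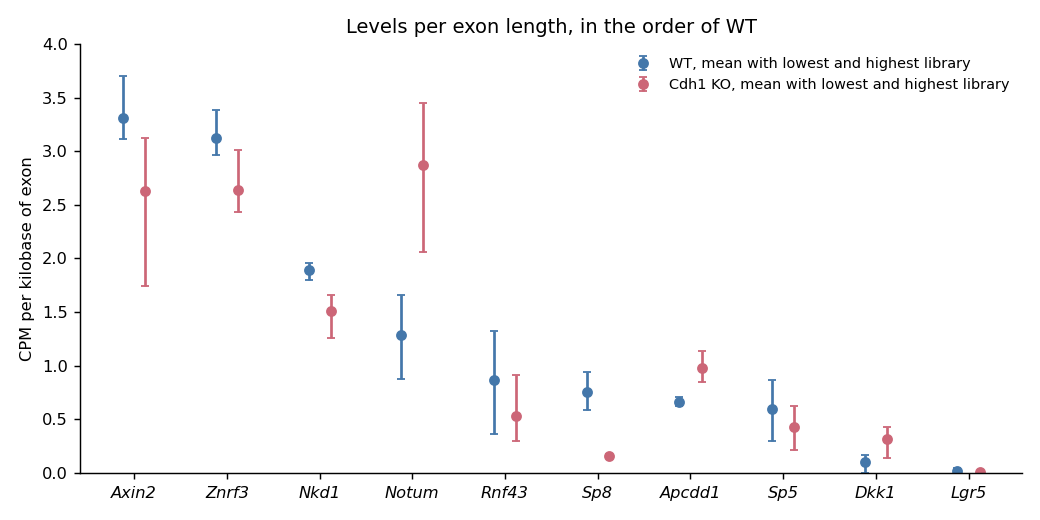
Level in CPM per kilobase of exon (linear axis from 0) in WT and Cdh1 KO, as the mean of 3 libraries with bars from the lowest to the highest library, in the order of the WT means. Notum rises to the height of Axin2 and Znrf3 in Cdh1 KO, and Sp8 drops to between Dkk1 and Lgr5.

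The 5 tested genes whose log2 CPM followed that of Axin2 most closely over the 6 libraries were Acy1, Cul1, Ppp4r3a, Dnttip2 and Tsc22d2, with Pearson's r from 0.988 to 0.993 among the 12847 genes whose mean count reached 50. None of the other 9 members was among them, but Sp5, Sp8, Dkk1 and Lgr5 had mean counts under 50 and were not ranked. The 6 points share the low knockout replicate A, and so high a value is a description of these libraries only.

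Other genes of the pathway were examined from 8 lists, in which 91 genes were matched and 76 tested. Of these, 8 were called higher and 4 lower in edgeR's quasi-likelihood test, which is 15.8% of those tested beside 13.3% of all genes, and their median log2 fold change was 0.07. Among 12 tested Wnt ligands 1 was called higher and 0 lower, beside 7.6% higher and 5.71% lower over all tested genes. At an unadjusted p under 0.05 there were 1 higher and 2 lower (26.7% over all tested genes). The called ligand was Wnt11, which acts mainly outside the beta-catenin branch. It rose from 3.06 CPM, 3.28 CPM and 4.50 CPM to 7.02 CPM, 8.56 CPM and 10.9 CPM (log2 fold change 1.29, edgeR adjusted p 0.00204). Among 10 tested inhibitors 1 was called, beside 13.3% of all tested genes. This was Sfrp1, which encodes a secreted Frizzled-related protein. It rose from 164 CPM, 162 CPM and 168 CPM to 277 CPM, 319 CPM and 328 CPM (log2 fold change 0.91, adjusted p 1.1e-05).

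All 17 receptor genes were tested, and 2 were called lower and 2 higher, beside 5.71% lower and 7.6% higher over all tested genes. Lgr4, which encodes a receptor for R-spondins like Lgr5, fell from 101 CPM, 96.2 CPM and 84.2 CPM to 70.5 CPM, 73.8 CPM and 72.7 CPM (log2 fold change -0.37, adjusted p 0.0147). With single libraries left out, 4 of 6 fits did not call it, and the adjusted p reached 0.0951 (without WT replicate A). Lgr6, the other gene of that family in the list and named after its values were seen, lies on chromosome 1, whose median was -0.33. Its log2 fold change was 0.67, and it was not called (edgeR adjusted p 0.0968). The Frizzled gene Fzd7 had a log2 fold change of -0.94 on chromosome 1, whose median was -0.33, and Fzd3 one of 0.55 on chromosome 14, whose median was 0.53. Ror2, a receptor for noncanonical Wnt ligands, had one of 0.45 (adjusted p 0.0293) and was not called in 5 of those 6 fits, where the adjusted p reached 0.132 (without knockout replicate B). Porcn, which attaches the lipid to Wnt ligands, was called higher at an adjusted p of 0.0495 and was not called in 9 of 15 alternatives, where the adjusted p reached 0.182 (without WT replicate C).

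Of the 11 genes of the destruction complex and Dishevelled, 0 were called by edgeR, beside 13.3% of all tested genes. At an unadjusted p under 0.05 there were 2 higher and 0 lower (26.7% over all tested genes). Ctnnb1, which encodes beta-catenin, had a log2 fold change of 0.07 with a 95% interval from -0.11 to 0.26. Of the 8 TCF and LEF factors and coactivators, 1 was called lower, beside 5.71% of all tested genes. This was Lef1, which binds DNA together with beta-catenin and is itself a described target, with a log2 fold change of -3.42 and 34.5% of its exon bases under an antisense gene.

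Of 14 tested genes in a list of other described targets, 3 were called higher and 1 lower, beside 7.6% higher and 5.71% lower over all tested genes. Ccn4, a secreted matrix protein also called Wisp1, had 47, 16 and 28 counts in WT and 3, 2 and 6 counts in Cdh1 KO. It passed the filter through its WT libraries only, and was not tested in 2 of 15 alternatives. Its knockout libraries were all at or under the floor. The WT mean of 1.44 CPM was 4.35-fold the highest knockout floor, and WT replicate B was nearest to that floor, at 0.808 CPM. Since the filter kept Ccn4 through the group where it is high, its edgeR adjusted p of 0.00408 is a description only. Bmp4, a growth factor of the BMP family, had a log2 fold change of 1.72 on chromosome 14. The transcription factor gene Jun had one of 0.78 (adjusted p 0.00260). Ephb2, an ephrin receptor known as a target in the intestine, had one of 0.35 (adjusted p 0.0280) and was not called in 5 of the 6 fits with a library left out, where the adjusted p reached 0.117 (without WT replicate A).

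**Figure D4:**
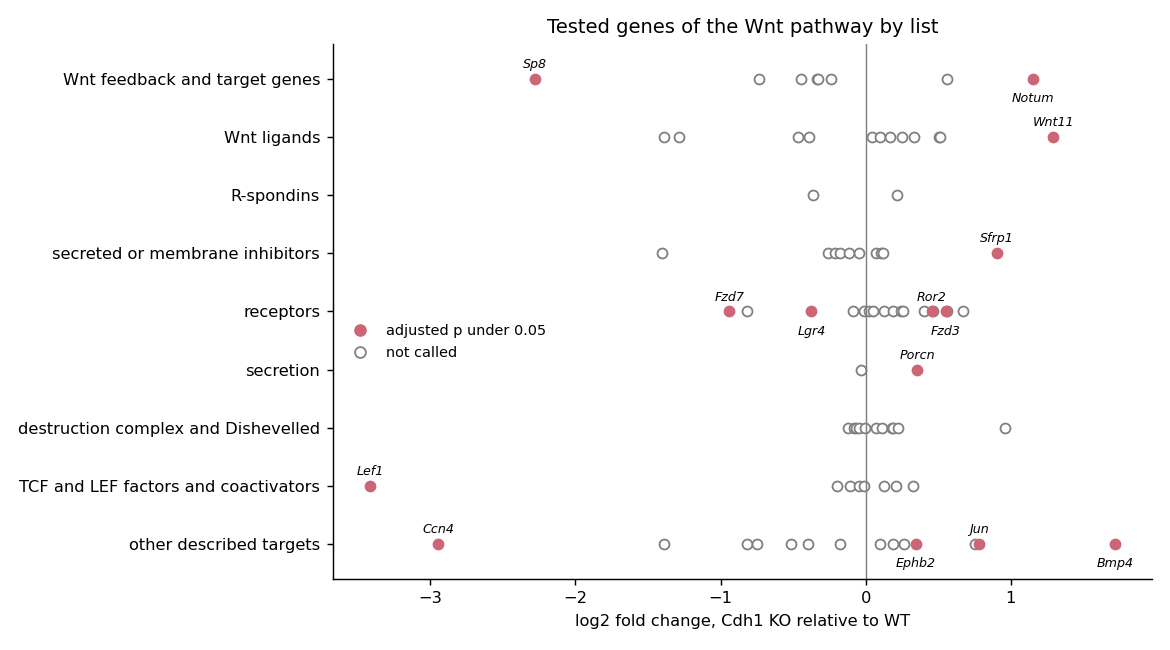
Log2 fold change of Cdh1 KO relative to WT for each tested gene of the Wnt feedback and target genes and of the 8 other lists, filled and named where the adjusted p was under 0.05. Called genes range from Lef1 at -3.42 to Bmp4 at 1.72, and the value of Ccn4 is a fitted one for a gene at the floor in Cdh1 KO.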

How the data were processed

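RNA of 3 WT and 3 Cdh1 KO libraries was measured. The submitters' processing notes name cutadapt 2.10, STAR 2.7.5b, featureCounts 2.0.1 and the build GRCm38. The authors deposited raw counts per gene, whole numbers without normalization, with the exon coordinates and exon length of each gene per the file headers. The annotation release, strand setting and handling of read pairs are not given in the sources used here. Total RNA was made into libraries with a directional kit, per the labels' protocols. Of 55401 identifiers, 55141 matched a symbol. Among counts from 1 to 10, 78.1% to 83.1% were even, against 50.2% to 52.1% of counts over 1000, so the floor was set to 6 counts (3 pairs if both mates were counted). Floors cover counting error only.

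The analysis used edgeR 4.0.16 in R 4.3.3, with filterByExpr by group (smallest count 10, smallest total 15; 17325 genes kept), TMM factors, and glmQLFit and glmQLFTest with genotype as the only term over all 6 libraries. A gene was called where its Benjamini-Hochberg adjusted p, taken over the whole table of tested genes, was under 0.05. Standard errors and 95% intervals came from the F statistic and its degrees of freedom. Exon overlaps and lengths came from the count table. The procedure was also run on simulated counts, and the outcome is not used as support here. The members and lists were chosen with earlier results of these data known. All members, Cdh1, every called gene of the 8 pathway lists and the 5 genes most like Axin2 were to be named. Ctnnb1, Lgr6, Pax6, Nes, Sox1, Zic1, Neurod1, Foxa2, Gata4, Sox7 and Sox17 were added after their values were seen. Alternatives were RLE, upper-quartile or no scaling factors, no filter or 1 CPM in 3 libraries, DESeq2 1.42.0, limma-voom (limma 3.58.1), the replicate letter as a block, counts divided by 2, and leaving out each library.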

Additional observations from a re-analysis of the deposited data

How the results depend on the processing

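Each of the 8 tested members kept the sign of its log2 fold change under all 15 alternatives, and the call of Sp8 held in each. The number of members called higher was 2 with DESeq2 and 2 without a filter on low counts, in place of 1, as Apcdd1 then passed. Leaving out 1 library gave 1 to 2 members called lower and 0 to 1 called higher, 3 to 5 pathway genes called lower and 5 to 9 called higher, and 532 to 1224 genes called lower and 842 to 1560 called higher over all genes. The lowest of these counts over all genes, 532 and 842, came without WT replicate A; 577 genes were called lower without WT replicate B, 603 without knockout replicate B and 645 without knockout replicate C. Pathway genes called higher were 5 without knockout replicate B and 5 without knockout replicate C. With the replicate block, 1 member was called lower and 1 higher, 5 pathway genes lower and 11 higher, and 1187 genes lower and 1499 higher; no member changed its call. The letters were not shown to pair the libraries, since the deviations of same-lettered libraries from their genotype means correlated across genes at 0.14 for A, -0.03 for B and 0.23 for C, and WT replicate B correlated best with knockout replicate A. No scaling moved the median of all genes by over 0.1. At about 1 CPM or less (Sp5, Dkk1, Lgr5 and, in Cdh1 KO, Sp8) depth limits what can be seen.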
